A study of Drosophila melanogaster with 2 samples.

Results

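The small subunit ribosomal protein genes of the fly encode the proteins of the cytosolic 40S particle, the part of the ribosome that scans mRNA and reads codons. Members were taken by a naming rule, chosen with earlier results of these data known. The rule took the protein-coding genes of the Ensembl BDGP6 annotation whose symbol starts with RpS and a digit. It also took sta, the gene for the RPSA (laminin receptor) protein of the same particle. This gave 39 genes of the 13968 annotated protein-coding genes on the chromosome arms. The data are chromatin immunoprecipitation with sequencing (ChIP-seq) of Irbp18, also named CG6272, from Drosophila melanogaster of the transgenic strain CG6272-GFP. The flies carried CG6272 fused to eGFP, chromatin came from whole embryos collected at 0 to 24 h, and the fusion was pulled down through an antibody against GFP. There is 1 group with 2 biological replicates, so conditions cannot be compared, and embryos of all ages and tissues are mixed in each sample. Whether untagged Irbp18 was also present in the embryos was not analysed here.

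Irbp18 is a basic leucine zipper protein of the C/EBP type that forms heterodimers with Xrp1. In flies with a mutation in 1 copy of certain ribosomal protein genes, the Minute mutants, this pair of factors is known to act in the loss of the slower cells when they lie beside normal ones, and RpS12 is known to be needed for the induction of Xrp1 there. Ribosomal protein genes are transcribed at high level in most cells, and many of their fly promoters use a polypyrimidine initiator, called TCT, in place of the usual initiator. A second sequence common at housekeeping promoters of the fly is the DNA replication-related element (DRE), bound by the factor DREF.

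A site is the summit of a peak in the authors' conservative pooled list, and a gene has a site when a summit lies within 500 bp of any of its annotated starts. Peaks in that list passed an irreproducible discovery rate (IDR) of 0.01, a measure of how well ranked peaks recur between sets. Of the 39 genes, 20 had a site, 1 each, while 16.8% of all protein-coding genes had at least 1. The 39 genes had a median of 2 annotated starts, against 1 over all protein-coding genes. Those with a site had a median of 2 and those without had 1. With the start of the longest-coding transcript alone, 20 still had a site, against 15% of all genes. Stretches of up to 101 bases centred on the summit are shown for the 6 genes with the highest peaks and for the paralogue genes with a site, because the strongest members and the diverged copies carry the differences described further on. They come from the RefSeq copy of the release 6 assembly (dm6), read 5′ to 3′ on the strand of the gene and ended 30 bases past its first annotated start where the window ran farther. Capitals mark the DRE (TATCGATA), its centre (ATCGAT) and the E-box CAGCTG.
RpS27 (chr3R:25247512-25247612, minus strand): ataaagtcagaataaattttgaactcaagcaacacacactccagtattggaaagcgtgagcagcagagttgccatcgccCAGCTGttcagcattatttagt
RpS20 (chr3R:20821910-20822010, plus strand): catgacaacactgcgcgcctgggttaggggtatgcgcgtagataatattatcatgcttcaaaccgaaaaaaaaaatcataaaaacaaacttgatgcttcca
RpS28b (chrX:9554527-9554627, plus strand): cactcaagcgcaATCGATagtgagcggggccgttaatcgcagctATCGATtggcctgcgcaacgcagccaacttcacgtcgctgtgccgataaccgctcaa
RpS29 (chr3R:9777982-9778071, plus strand): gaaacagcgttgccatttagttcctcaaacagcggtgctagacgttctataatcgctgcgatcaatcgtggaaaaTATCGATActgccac
RpS15Aa (chrX:13337676-13337739, minus strand): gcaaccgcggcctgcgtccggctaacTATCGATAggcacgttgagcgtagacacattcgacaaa
RpS25 (chr3R:11216304-11216404, minus strand): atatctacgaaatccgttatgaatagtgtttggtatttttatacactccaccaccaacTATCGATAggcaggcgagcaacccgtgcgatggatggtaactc
RpS5a (chrX:17148271-17148371, minus strand): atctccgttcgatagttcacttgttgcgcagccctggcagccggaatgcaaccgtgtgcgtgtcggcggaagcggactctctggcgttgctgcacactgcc
RpS10b (chrX:19597906-19598006, plus strand): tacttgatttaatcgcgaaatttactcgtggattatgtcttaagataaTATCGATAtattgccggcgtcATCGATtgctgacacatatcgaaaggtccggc
RpS19a (chrX:16637808-16637908, plus strand): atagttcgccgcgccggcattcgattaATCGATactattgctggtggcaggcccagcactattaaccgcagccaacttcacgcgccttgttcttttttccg
RpS14b (chrX:7934818-7934918, plus strand): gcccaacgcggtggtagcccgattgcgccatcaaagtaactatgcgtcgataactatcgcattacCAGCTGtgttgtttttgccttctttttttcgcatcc
RpS14a (chrX:7933566-7933666, plus strand): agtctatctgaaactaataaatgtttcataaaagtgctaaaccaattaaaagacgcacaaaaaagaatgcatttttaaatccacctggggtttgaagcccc

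Among these windows, RpS10b, RpS15Aa, RpS25 and RpS29 held a full DRE, RpS28b and RpS19a its centre alone, and RpS27 and RpS14b the E-box. RpS20, RpS5a and RpS14a held none of the 3.

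Sites were present at 20 of the 39 small subunit genes (51.3%), against 16.8% of all protein-coding genes in the same list. In the other pooled list 21 genes had a site (53.8%), the added one being RpS24, against 18.0% of all genes. In replicate 1 alone there were 16 (41.0%), against 15.4%, and in replicate 2 alone 19 (48.7%), against 11.0%. The share at the small subunit genes was thus higher than among all genes in every list, but replicate 2 held more of these genes than replicate 1 although it held fewer genes in all (1538 against 2153). The 54 large subunit genes (RpL and RpLP) gave 57.4%, 57.4%, 51.9% and 40.7% in the same 4 lists. The mitochondrial ribosomal protein genes were lower in the conservative list, with 7 of 26 small subunit genes (26.9%) and 16 of 47 large subunit genes (34.0%). In the other pooled, replicate 1 and replicate 2 lists, the mitochondrial small subunit genes gave 42.3%, 26.9% and 23.1%. The mitochondrial large subunit genes gave 36.2%, 36.2% and 21.3% there, so the size of the gap depended on the list. These differences were not tested.

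**Figure D1:**
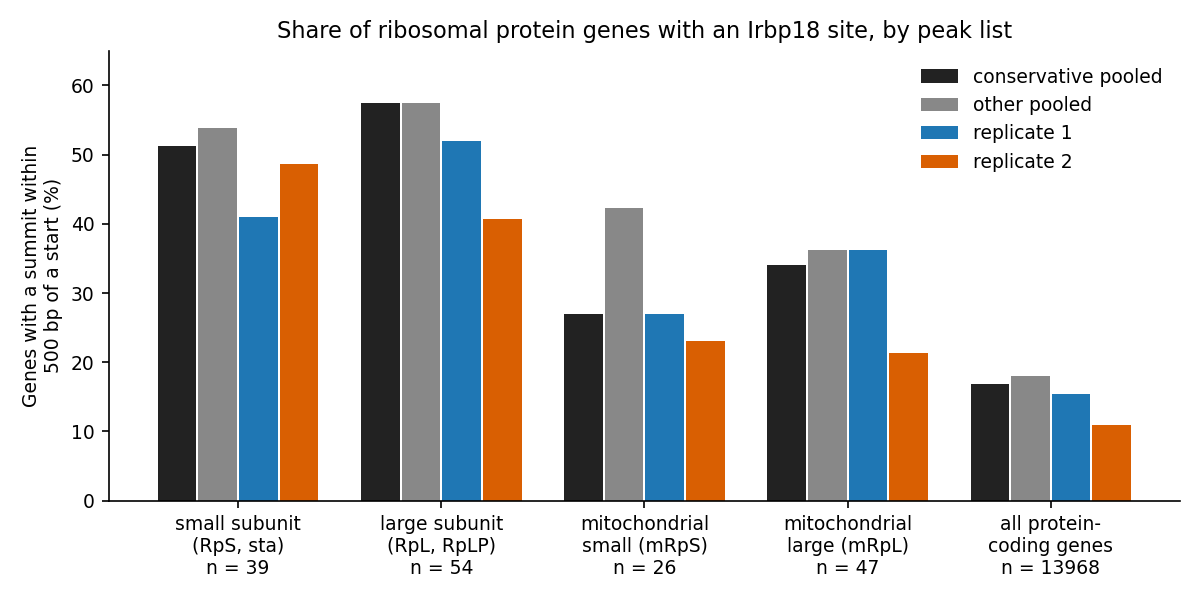
Percentage of genes with a summit within 500 bp of a start (vertical axis) for 5 gene groups, with 1 bar for each of the conservative pooled, other pooled, replicate 1 and replicate 2 lists. The small subunit genes stand at 51.3%, 53.8%, 41.0% and 48.7%, above all protein-coding genes at 16.8%, 18.0%, 15.4% and 11.0%.

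Other genes of the 40S pathway were less uniform. Rack1, whose protein sits on the head of the small subunit but falls outside the naming rule, had a site at its start with a signal value of 97.1, and 67.9 in replicate 1, with none in replicate 2. The signal value is the authors' measure of peak height in each list, and its scale was not given in the sources used here. Values are therefore compared within a list. A list of 12 genes for nucleolar and ribosome assembly factors, drawn up for the small subunit, had 3 with a site (25%, against 16.8% of all protein-coding genes). They were Non3 (142, 72 bp upstream), which is known for its part in large rather than small subunit assembly, bys (141, 25 bp upstream), whose protein is the fly bystin, and hoip (140, 466 bp upstream). Fib and RIOK1 had a peak in the other pooled list only (78.2) or in that list and replicate 1 (80.2 and 63.5), which made 5 of 12 there (41.7%, against 18.0%). Replicate 1 held 4 of the 12 (33.3%, against 15.4%) and replicate 2 held 2 (16.7%, against 11.0%). The genes nop5, Nop56, RIOK2, wcd, kz, Nop60B and l(2)k09022 had none in any list.

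The highest peak of the group was at RpS27, a zinc-binding protein of the subunit body. At chr3R:25247422-25247648 (dm6), 48 bp upstream of its start, the signal value was 342 in the conservative list, 171 in replicate 1 and 169 in replicate 2. This peak ranked 328 of 3426 in the conservative list, so 90.5% of sites were lower. Its summit also lay 96 bp from the start of Nup37, a nuclear pore gene read in the opposite direction. RpS20, a head protein, followed with 317, 204 in replicate 1 and 111 in replicate 2. The RpS20 peak, at chr3R:20821910-20822079, lay 221 bp upstream of RpS20 but only 112 bp from the start of the divergent gene CG17271. It was the 1 small subunit site whose nearest protein-coding start belonged to another gene.

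Among head proteins, 9 of 19 had a site. RpS28b, a head protein beside the mRNA exit, had 274, 147 and 129 in the conservative, replicate 1 and replicate 2 lists, 46 bp upstream of its start. RpS29, a small zinc-binding protein, had 238, 153 and 80.9, with the summit 10 bp upstream. RpS25, which is needed by some viral internal ribosome entry sites in yeast and human cells, had 201, 109 and 106. These 3 genes were in both replicate lists with summits close to the start, but the RpS25 summits of the replicates lay 100 bp apart. RpS12 had 167, 97.3 and 76.0, with its summit 61 bp upstream. RpS19a, whose human counterpart is mutated in Diamond-Blackfan anaemia, had 114, 61.3 and 56.7.

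Of the 20 body proteins 11 had a site. RpS15Aa had 205 in the conservative list, 98.9 in replicate 1 and 106 in replicate 2. Its summit lay 16 bp inside the gene, in the 5′ UTR. RpS7 had 193, 112 and 74.8, and RpS4 had 191, 130 and 78.5. RpS21 had 159, 72.1 and 77.8, with the summit 1 bp downstream of a start. RpS2, a protein at the mRNA entrance, had 108, 65.4 and 44.0, and RpS23, which acts in decoding accuracy, had 116, 79.9 and 44.1. Head and body genes had sites in 47.4% and 55% of cases in the conservative list, against 16.8% of all protein-coding genes. The order differed between the replicates. Replicate 1 held 6 head genes (31.6%) and 10 body genes (50%), against 15.4% of all genes. Replicate 2 held 10 head genes (52.6%) and 9 body genes (45%), against 11.0%.

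**Figure D2:**
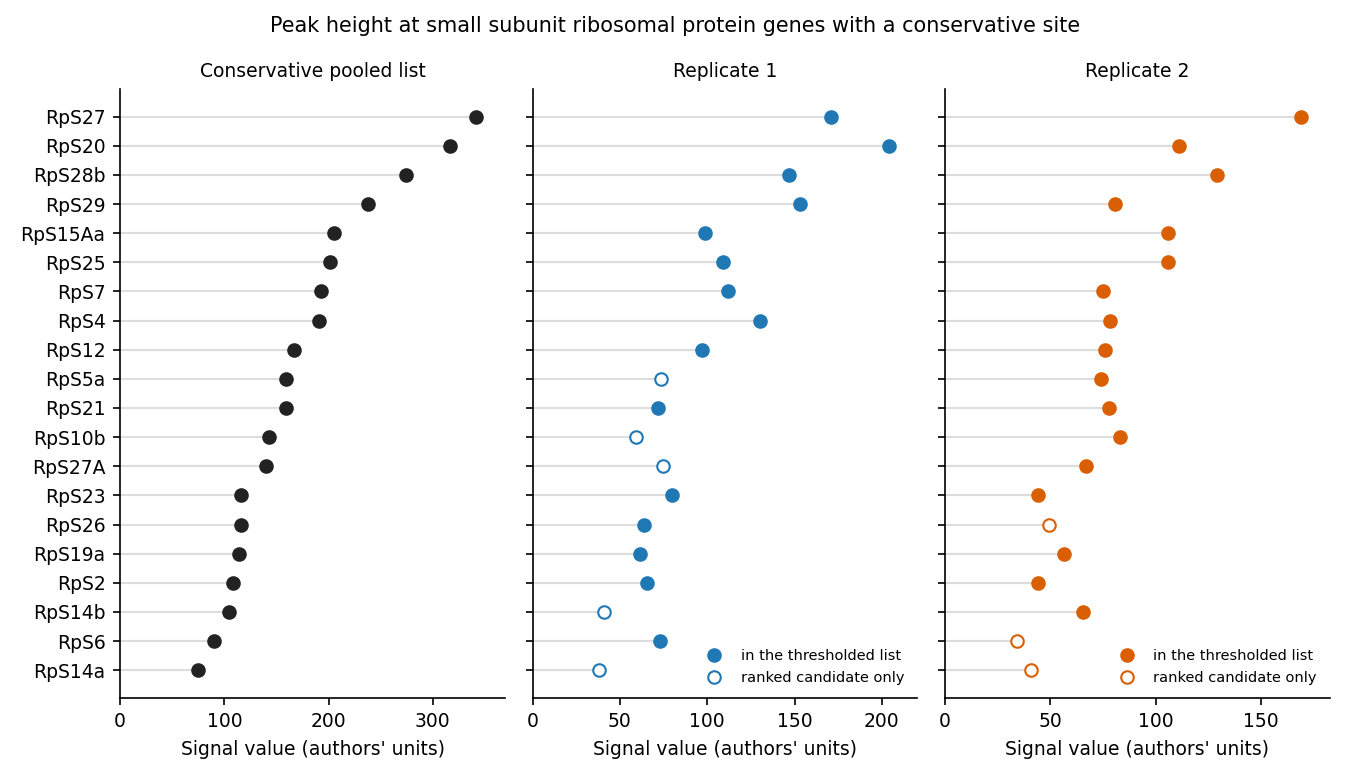
Signal value (horizontal axes, in the authors' units, a separate scale for each list) at the 20 small subunit genes with a conservative site, for the conservative list and each replicate. Filled points are peaks of the thresholded list and open points are candidates of the ranked list that missed it. RpS27 and RpS20 are highest in the conservative list, at 342 and 317, and RpS14a is lowest, at 75.2.

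Heights were moderate within the list. The 20 sites had a median signal value of 159, from 75.2 at RpS14a to 342 at RpS27. The median over all 1810 sites at protein-coding starts was 132 and their highest value 2812. Placed in the conservative list, the median small subunit site lay above 66.8% of all sites, against 55.9% for sites at protein-coding starts in general. That difference was not seen in replicate 2, where the medians were 50.3% and 53.6%, while replicate 1 gave 61.1% and 53.6%. Of the 20 sites 7 (35%) were in the highest 25% of the list, against 30.1% of sites at all protein-coding starts. In both replicates the order was the reverse, with 25% against 28.8% in replicate 1 and 10% against 29.8% in replicate 2.

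Of the 20 sites, 13 (65%) had a summit within 100 bp in both replicate lists, against 51.3% of all sites at protein-coding starts. The paired replicate summits were 17 bp apart in the median, with a range from 3 to 100 bp. The gap to all sites depended on the distance. With summits within 50 bp, 10 of the 20 sites (50%) were in both replicate lists, against 47.1%. At 100 bp, replicate 2 alone held 4 (20%, against 5.08% of all sites at starts), and replicate 1 alone held 2 (10%, against 21.3%).

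The 4 sites seen in replicate 2 alone were those of RpS5a, RpS10b, RpS14b and RpS27A. At RpS5a, a protein near the mRNA exit, the conservative value was 159 and that of replicate 2 was 74.2, with a replicate 1 candidate of 73.5 at an IDR of 0.834. At RpS10b the values were 143 and 82.9, with a replicate 1 candidate of 59.2 at an IDR of 0.833. The replicate 1 candidate at RpS5a was therefore higher than the accepted replicate 1 peaks of RpS2 (65.4) and RpS19a (61.3), although its IDR was far above the threshold. RpS27A, made as a fusion with ubiquitin, had 140 and 66.9, and its replicate 1 candidate of 74.6 missed the threshold narrowly with an IDR of 0.0107. RpS14b had 104 and 65.3, with 41.1 at an IDR of 0.0543 in replicate 1.

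RpS26 and RpS6 were the reverse. RpS26 had 116 in the conservative list and 63.9 in replicate 1, with a replicate 2 candidate of 49.2 at an IDR of 0.866. RpS6, the target of S6 kinase, had 89.9 and 72.7, with 34.3 at an IDR of 0.104 in replicate 2. A different replicate 2 peak (65.1), 485 bp upstream of RpS6, is why RpS6 still counts in the replicate 2 total. RpS14a (75.2) was in neither replicate list, with candidates of 38.1 (IDR 0.103) and 40.9 (IDR 0.602) in replicates 1 and 2.

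Summits lay close to the start, with a median position 47 bp upstream, against 78 bp for sites at all protein-coding starts. These distances are to the nearest annotated start. The small subunit genes with a site had a median of 2 starts, against 1 over all protein-coding genes with or without a site. Median distances from 1 start per gene are not given here. Within 100 bp of the start lay 18 of 20 (90%), against 51.4% for all such sites and 71.9% for large subunit sites. RpS20 (221 bp) and RpS14a (126 bp) were the exceptions. Mitochondrial ribosomal protein sites, by comparison, had a median of 135 bp upstream and 32% within 100 bp. In replicate 1 the median at small subunit genes was 20 bp upstream, against 78 bp for all sites at starts, and 93.8% lay within 100 bp, against 53.2%. In replicate 2 the median was 41.5 bp upstream, against 95 bp, and 80% lay within 100 bp, against 46.3%. The side of the start was less steady. In the conservative list 18 of 20 summits (90%) lay upstream, against 80.4% of all sites at starts, but the shares were 81.2% against 83.6% in replicate 1 and 80% against 84.3% in replicate 2.

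**Figure D3:**
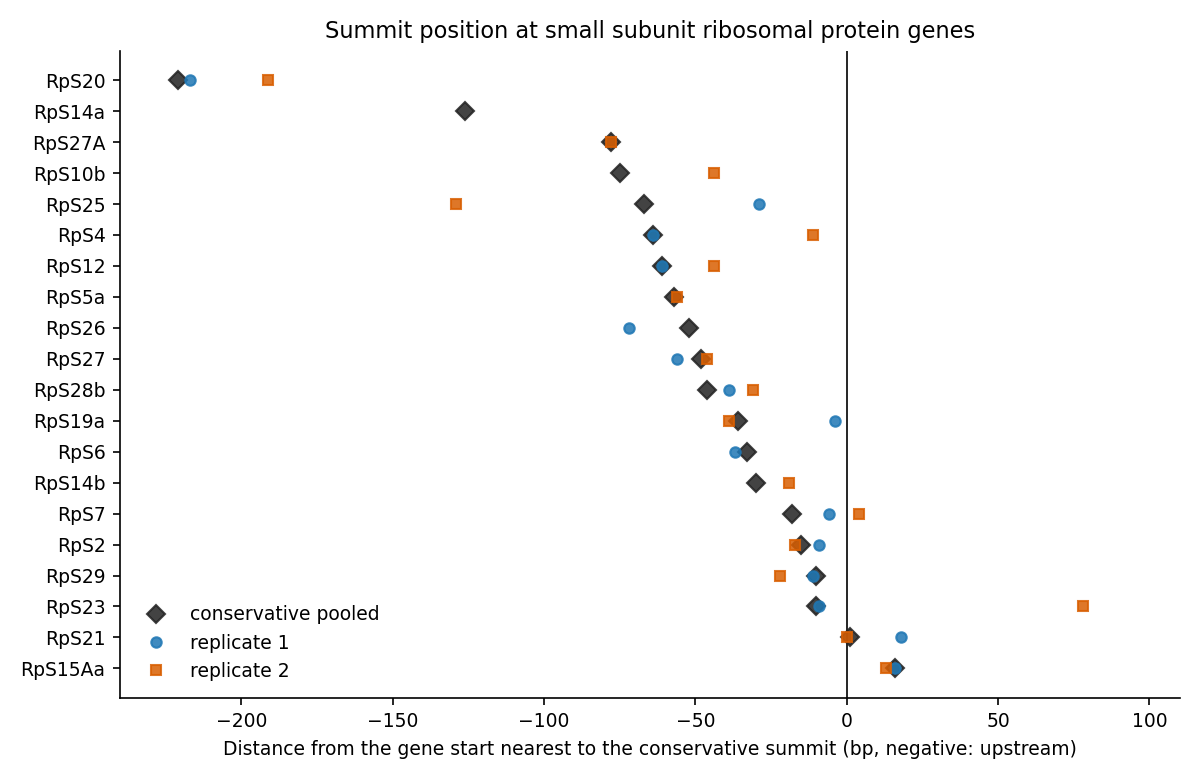
Distance of the summit (horizontal axis, in bp, negative values upstream) from the gene start nearest to the conservative summit, for the 20 small subunit genes with a site. Diamonds are the conservative list, circles replicate 1 and squares replicate 2 (thresholded peaks within 100 bp only). Apart from RpS20 at 221 bp and RpS14a at 126 bp upstream, all conservative summits lie within 100 bp of the start.

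Another protein-coding gene started within 500 bp of 7 of the 20 summits (35%), against 40.8% of all sites at protein-coding starts and 59.4% at large subunit genes. The order depended on the distance, with 20% against 19.9% of all such sites within 200 bp and 65% against 51.9% within 1000 bp. In 6 of the 7 the neighbour was divergent: Nup37 at RpS27, CG17271 at RpS20, CG4820 at RpS25, CG3104 at RpS21, Rok at RpS19a and Dhdds at RpS14a. The last, Ip259, shares the start of RpS27A, so that site cannot be assigned to either gene.

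Paralogues differed by copy. The group has 6 families of duplicated genes, 13 genes in all, and 7 of them had a site (53.8%, against 16.8% of all protein-coding genes). In 5 families exactly 1 gene did. In replicate 1, 3 of the 13 had a peak (23.1%, against 15.4% of all genes), and in replicate 2 there were 6 (46.2%, against 11.0%). The 26 other genes gave 13 in either (50%). RpS5a had a site (159) and RpS5b, known mainly from the ovary, had a best candidate of 58.5 at an IDR of 0.0629, 394 bp downstream. RpS10b had 143, and RpS10a a best candidate of 16.1 at an IDR of 0.843. RpS19a had 114, and RpS19b, known from the germ line, a candidate of 36.7 at an IDR of 0.611, 447 bp upstream.

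RpS28b had 274, whereas RpS28a and RpS28-like had best candidates of 25.8 (IDR 0.433) and 15.2 (IDR 0.843). RpS15Aa had 205, and RpS15Ab a candidate of 43.1 at an IDR of 0.467. These last copies share 98.2% of their coding bases but only 51.0% of the 250 bases upstream of the start. Over the 8 pairs of paralogues the identity of these upstream bases ranged from 49.4% to 54.2% by global alignment. No identity between unrelated promoters is given here, so these values do not show that upstream bases are conserved. RpS14a and RpS14b, neighbours with starts 1156 bp apart, share 97.8% of coding bases and both had a site. How reads that match both copies were placed was not analysed here.

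The copy and the chromosome cannot be told apart here. The 7 paralogues with a site are all on the X chromosome and the 6 without one are all on autosomes. Of the other 26 genes, 13 had a site. These single genes had a site in 1 of 2 cases on the X (RpS6 but not sta) and in 12 of 24 on autosomes. Among all protein-coding genes the X (16.6%) was close to the other large arms (15.3% to 19.1%). By arm, sites were at 8 of 9 small subunit genes on the X, 4 of 6 on 2L, 1 of 7 on 2R (RpS23), 2 of 4 on 3L and 5 of 12 on 3R.

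Of the 19 genes with no site, 17 had at least 1 ranked candidate within 500 bp of a start (89.5%, against 70.6% of all protein-coding genes with no site). Of the 19, 3 reached an IDR of 0.05 (15.8%, against 5.24%). One of them was sta (74.9, IDR 0.0155, 43 bp downstream), outside the threshold of 0.01, whereas RpS14a, with an IDR of 0.00668, lay just inside it. The sta candidate was nearly as high as the accepted peak of RpS14a (75.2).

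Above 0.05 were RpS5b, RpS9 (63.9, IDR 0.0723) and RpS18 (63.5, IDR 0.0957, and 0.0225 in the other pooled analysis). RpS18 is a gene with well-known Minute mutants. RpS3, another classical Minute gene, had a best candidate of only 6.36 at an IDR of 0.843. RpS15 and RpS3A had no candidate at all. RpS3A is on chromosome 4, where the whole ranked list held 15 candidates and no site, so nothing can be said of it.

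RpS24 and RpS16 depended on the list. RpS24 had a peak of 61.6 in replicate 1 and 78.5 in the other pooled list, but in the conservative analysis the same 78.5 had an IDR of 0.133, and replicate 2 gave 21.8 at an IDR of 0.581. RpS16 had a peak of 53.6 in replicate 2, 50 bp upstream, and no candidate in replicate 1. RpS28a had a replicate 1 candidate of 48.5 at an IDR of 0.017, 76 bp upstream, and no candidate in replicate 2. Further genes without a site were RpS13 (55.0, IDR 0.352) and RpS30 (21.3, IDR 0.593), whose protein is made as a fusion with a ubiquitin-like protein. In all, 14 of the 39 genes had a peak in each of the 4 lists and 17 in none. The same shares over all protein-coding genes are not given here. The share of all genes with a peak in each of the 4 lists cannot exceed the 11.0% of replicate 2.

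The promoters of the group share features that the naming rule did not use. The motifs searched, like the members, were chosen with earlier results of these data known. A TCT initiator, searched as CCTTT or TCTTT on the gene's strand with the second letter within 5 bp of a start, was found at 25 of the 39 genes (64.1%), against 3.31% of all protein-coding genes. A TATA box, searched as TATAAA from 40 to 20 bp upstream on the gene's strand, was found at 0, against 8.46%. The DRE, searched as TATCGATA, which reads the same on both strands, lay between 250 bp upstream and 50 bp downstream of the start of the longest-coding transcript in 12 of 39 (30.8%), against 9.09% of all genes. Large subunit genes were similar, with 57.4% for the TCT, 1.85% for the TATA box and 27.8% for the DRE.

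The initiator was at most small subunit genes, whether or not they had a site. Of the 20 with a site 14 (70%) had a TCT, and of the 19 without one 11 (57.9%). The same shares over all protein-coding genes were 5.04% and 2.97%. These differences were not tested, and the small subunit groups are small. Among all protein-coding genes with a TCT, 118 of 463 had a site (25.5%), below the 14 of 25 (56%) for small subunit genes with a TCT. Small subunit genes without a TCT had a site in 6 of 14 cases (42.9%), against 16.5% of all genes without one. The DRE was in 8 promoters of 20 with a site (40%) and in 4 of 19 without (21.1%). Over all protein-coding genes these shares were 16% and 7.68%.

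Within 50 bp of the summit, a DRE was present at 7 of 20 sites (35%), against 6.52% of all sites at protein-coding starts and 25% of large subunit sites. The 7 were RpS6, RpS7, RpS10b, RpS12, RpS15Aa, RpS25 and RpS29, and the centre of the element lay from 2 bp (RpS10b) to 28 bp (RpS29) from the summit. Its 6-base centre, ATCGAT, searched after the windows had been seen, was at 10 sites (50%, against 15%), adding RpS2, RpS19a and RpS28b. The full element overlaps this centre by its construction.

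The E-box CAGCTG, a palindrome, was at 5 sites (25%, against 5.03% of all sites at starts and 0 of 32 large subunit sites). These were RpS4, RpS6, RpS14b, RpS21 and RpS27. With 25 bp either side of the summit 2 sites held it (10%, against 2.32%). Over whole promoters the E-box was at 7 of 39 small subunit genes (17.9%) and 17.9% of all genes, and among those with a site at 25% and 22.2%. The windows were also richer in G and C, with a median of 45.5% against 36.6% for all sites at starts, the same as at large subunit sites (45.5%).

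Sequences known for basic leucine zipper factors were searched on both strands. The composite site CARE (TGATGCAA or TGATGTAA), the C/EBP palindrome (TTGCGCAA), the PAR site (TTACGTAA), the CRE palindrome (TGACGTCA) and the AP-1 site (TGACTCA) were each at 0 of 20. Their shares over all sites at protein-coding starts were 0.387%, 0.166%, 0.166%, 0.166% and 0.884%, so nearly all sites at starts lacked them as well. The relaxed form (TTGCNNAA or TTACNNAA), which includes the palindrome, was at 2 sites (10%, against 16.5%), RpS23 and RpS26. That order turned with 100 bp either side, where 7 of 20 sites held it (35%, against 30.4%), and with 25 bp there were 0 (against 9.56%). Over whole promoters it was at 18 of 39 small subunit genes (46.2%), against 39.8% of all genes. Motif 1 (core GGTCACAC) was at RpS23 alone (5%, against 1.71%), and the E-box CACGTG and the GAGA repeat (GAGAGAG) at none (1.27% and 0.773% of all sites at starts).

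**Figure D4:**
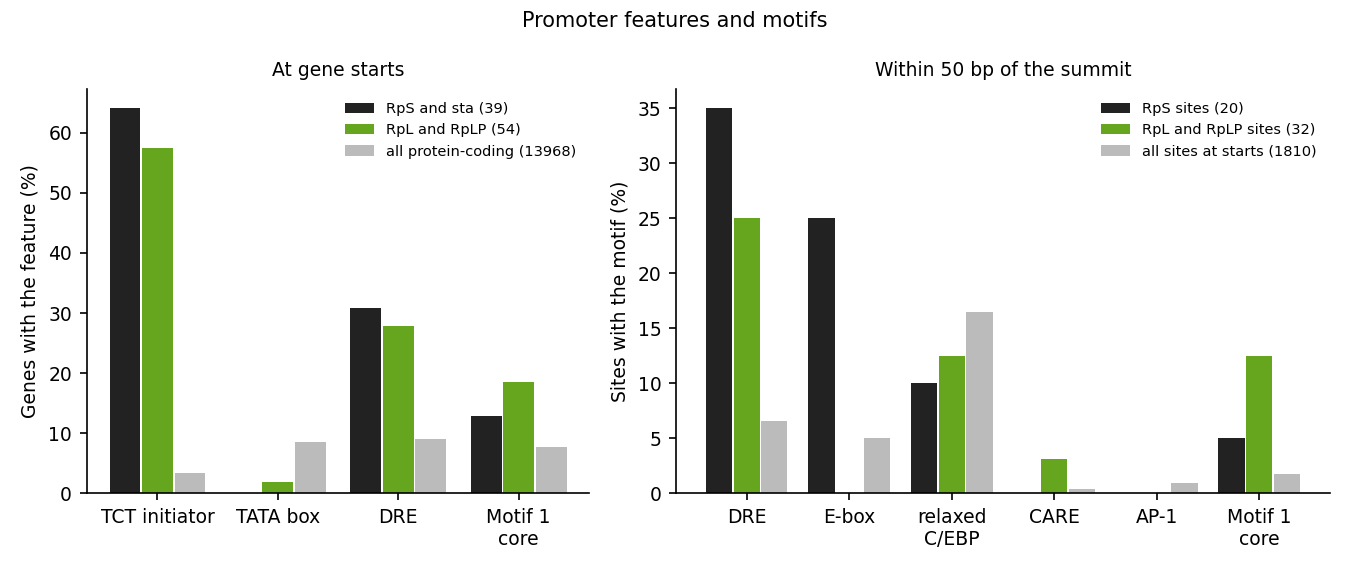
Left, percentage of genes (vertical axis) with a TCT initiator, TATA box, DRE or Motif 1 core at the promoter, for the 39 small subunit genes, the 54 large subunit genes and all 13968 protein-coding genes. Right, percentage of sites (vertical axis) with each motif within 50 bp of the summit, where the E-box is CAGCTG. The DRE stands at 35% of the 20 small subunit sites and 6.52% of the 1810 sites at protein-coding starts.

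Some small subunit genes host small nucleolar RNAs, which guide the modification of ribosomal RNA. Such RNAs lay within 13 of the 39 genes on the same strand (33.3%), against 29.6% of large subunit genes and 0.623% of all protein-coding genes. They were in 7 of the 20 genes with a site (35%) and 6 of the 19 without (31.6%). RpS5a held 14 of them and RpS7 held 7.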

How the data were processed

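The 2 libraries were ChIP-seq of GFP-tagged Irbp18. Per the labels, sonication gave a size range of 200 to 800. The authors deposited peak lists on dm6, per the labels, for each replicate and for 2 pooled analyses. Names of the aligner and peak caller were not given in the sources used here. A deposited score is a whole number of up to 1000, the deposited offset places the summit, the deposited signal value is the authors' own peak height, used only within a list, and the −log10 of the global IDR comes from the authors' ranked lists. The conservative ranked list held all 3426 conservative arm peaks (3407 in the other). In the pooled ranked lists, 16 columns of per-set values were not used. Read depth is unknown, and no control library was analysed here.

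Summits were placed on Ensembl BDGP6.54 (release 115) starts, without transposable elements and pseudogenes. Sequence came from the RefSeq release 6 assembly, whose arm lengths contain all arm peaks. A replicate's peak matched a site when its summit lay within 100 bp, and where its thresholded list had none, the ranked candidate of lowest IDR within 100 bp was taken. The best candidate of a gene is that of lowest IDR. The functions were tested on simulated data with known answers (Python 3.11.15, pandas 2.3.3, Biopython 1.88). The naming rule took every member, but some members' own values are not reported here. The members, gene lists and motifs were chosen with earlier results of these data known. With 1 group, no test between samples was possible and no p-value is given.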

Additional observations from a re-analysis of the deposited data

How the results depend on the processing

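No paired analysis was possible because there is only 1 group. The number of small subunit genes with a site, 20 by the chosen settings, ranged from 16 to 23 over 11 alternatives. Replicate 1 alone lost RpS5a, RpS10b, RpS14a, RpS14b and RpS27A and added RpS24, and replicate 2 alone lost RpS14a and RpS26 and added RpS16. An IDR of up to 0.05 gave 23, sta among those added, against 21.1% of all genes. A score of 1000 removed RpS14a (19 of 39, against 14.1% of all genes). Both a distance of 200 bp and the nearest start alone removed RpS20 (19 each, against 12.4% and 12.2%). A distance of 1000 bp added RpS19b (21, against 19.2% of all genes). Peak overlap, the longest-coding transcript and RefSeq starts each gave 20, against 17.9%, 15% and 16.7% of all genes. The median position in the list was 66.8% and fell between 50.3% and 61.1% in the single replicate lists. A neighbouring start, at 35% of summits against 40.8% of all sites at starts, was within 1000 bp of 65% against 51.9% and within 200 bp of 20% against 19.9%. The relaxed C/EBP site was at 7 summits with 100 bp either side (35%, against 30.4%, the reverse of 10% against 16.5%) and at 0 with 25 bp (against 9.56%). The E-box CACGTG was at 1 with 100 bp (5%, against 2.82%) and the E-box CAGCTG at 2 with 25 bp (10%, against 2.32%). Genes with no site but a candidate at an IDR of up to 0.05 numbered 5 within 1000 bp, and the share over all genes at that distance is not given here. The cause of these shifts was not tested, beyond the wider or narrower window itself. The DRE was at 5 summits with 25 bp either side (25%, against 3.76%) and at 8 with 100 bp (40%, against 10.2%). The share of upstream summits was 90% against 80.4% of all sites at starts, but ran from 80% to 81.2% in the single replicates, below the 84.3% and 83.6% of all such sites there. It was 85.7% against 80.8% in the other pooled list, and 95% against 74.2% from the start of the longest-coding transcript. Sites found in both replicates, 65% against 51.3% of all sites at starts, fell to 50% against 47.1% with summits within 50 bp. The other settings kept 65%, against 52.2% to 54.7%. Of 51 alternatives, 2 were added after the windows were seen. Peak lists without read counts leave the counting error of each value unknown.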
